A study of Mus musculus with 12 samples.

Results

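Cfd encodes adipsin, also called complement factor D, and its transcript level was followed here through 12 mouse livers. It is 1 of 22855 genes summed from the liver RNA sequencing table, and both transcripts that carry its name in the table were used. Cfd was selected on its measured levels in these same livers, so its levels and the differences between its groups are given as a description, with no test. Factor D is a serine protease of the alternative pathway of complement. It cleaves factor B once that protein is bound to C3b, a fragment of C3, which completes the convertase that splits further C3. Adipsin is best known as a protein secreted by adipocytes, and its transcript is low in the liver of lean mice.

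The livers came from male C57BL/6J mice of 21 weeks, 3 per group, which had eaten their diets for 16 weeks. The ND group received a normal diet and the HFD group a high-fat diet. The CLE group received the high-fat diet with 1.5% (w/w) of an ethanol extract of chrysanthemum leaf, and the LU group the high-fat diet with 0.003% (w/w) of the flavone luteolin. The 9 HFD, CLE and LU mice therefore shared the high-fat diet, and the sequenced livers were picked by the study as representative of larger groups. The values are FPKM, in which the fragments assigned to a transcript are divided by its length and by the size of the library, so that levels of different genes can be set side by side. In bulk liver, a change in the number of cells that express a gene and a change in its RNA per cell cannot be told apart.

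The table held 1 annotated and 1 assembled transcript of Cfd, both on the plus strand of chromosome 10, and no other transcript overlapped them. In the GENCODE M21 annotation of GRCm38 the gene lies at chr10:79890853-79892655, and the annotated transcript spans chr10:79890853-79892656 in the table. The assembled transcript began 53 bases upstream, at position 79890800. The 250 bases before the annotated start, chr10:79890603-79890852 on the plus strand in RefSeq for GRCm38.p6, are shown because the transcripts differ there. The 53 bases between the starts are in capitals.
Cfd upstream sequence: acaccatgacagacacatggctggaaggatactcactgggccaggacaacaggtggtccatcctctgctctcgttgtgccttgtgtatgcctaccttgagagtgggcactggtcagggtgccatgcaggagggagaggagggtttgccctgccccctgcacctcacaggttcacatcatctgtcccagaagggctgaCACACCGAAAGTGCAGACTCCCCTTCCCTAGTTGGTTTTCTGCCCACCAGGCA
The window has a GC content of 57.6% and holds no TATAAA on either strand, letters that 12.3% of 32544 distinct windows of the same length before other RefSeq starts contain.

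Cfd was barely present in ND livers and stood at 21.8 FPKM or more in every high-fat-fed liver. In ND livers it stood at 0.889, 1.65 and 1.54 FPKM (mice 2, 3 and 4), a mean of 1.36 ± 0.409 FPKM (SD, n = 3). In HFD livers it stood at 83.1, 58.9 and 103.7 FPKM (mice 12, 15 and 18), a mean of 81.9 ± 22.4 FPKM (SD, n = 3). The lowest HFD liver was 35.8 times the highest ND liver, so the groups did not overlap. On the log2(FPKM + 1) scale the difference, HFD minus ND, was 5.11 with a standard error of 0.59, and the ratio of the mean FPKM was 60.3. Genes whose mean over the livers reached 0.5 FPKM are called the genes tested here. Among these 11986 the Cfd difference was the second highest, after Cyp2b9, a cytochrome P450 of drug metabolism. The standard error of 0.59 comes from the limma fit of all 4 groups, with a variance drawn towards that of genes of like level. It is therefore the same in every comparison and is not the spread of the 2 groups compared.

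Cfd also stood far above the ND level in both groups with an additive. In CLE livers it stood at 111.0, 21.8 and 150.03 FPKM (mice 2, 4 and 11), a mean of 94.3 ± 65.8 FPKM (SD, n = 3). In LU livers it stood at 264.9, 168.3 and 71.3 FPKM (mice 2, 3 and 8), a mean of 168.2 ± 96.8 FPKM (SD, n = 3). The lowest of these 6 livers, CLE mouse 4, was still 13.2 times the highest ND liver. The log2 difference from ND was 4.96 for CLE and 5.99 for LU, in both cases the highest of all genes tested.

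**Figure D1:**
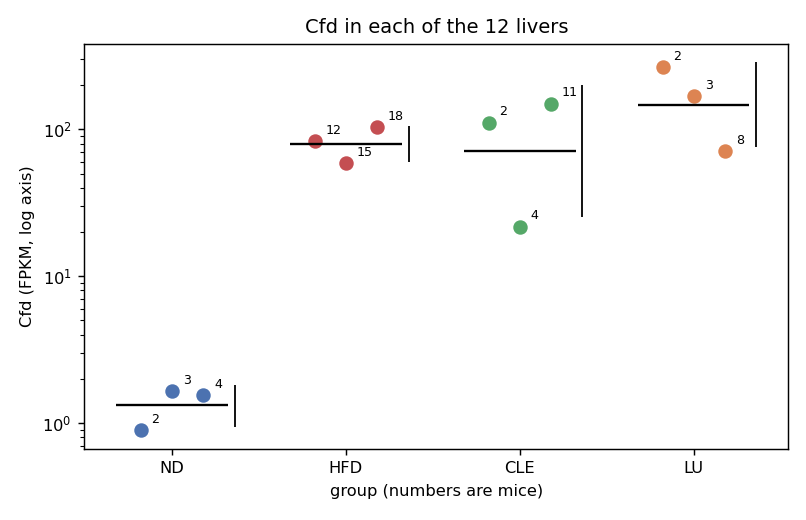
Cfd in FPKM on a log axis, 1 point per liver with the mouse number beside it, by diet group. Horizontal lines are the mean and vertical lines the mean ± SD, both taken on the log2(FPKM + 1) scale. The 3 ND livers lie between 0.889 and 1.65 FPKM and the 9 high-fat-fed livers between 21.8 and 264.9 FPKM.

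The 3 groups on the high-fat diet overlapped with one another in Cfd. The log2 difference between CLE and HFD livers was -0.15, with the same shared standard error of 0.59. That error hides an uneven spread, with a log2 SD of 1.47 in CLE and 0.41 in HFD livers. The ratio of the mean FPKM was 1.15, so the direction depended on the scale. It also depended on CLE mouse 4, since without this liver the log2 difference, CLE minus HFD, was 0.69, and on HFD mouse 18, without which it was 0.04. The log2 difference between LU and HFD livers was 0.88, with LU mouse 8 inside the HFD range and the other LU livers above it. Without LU mouse 8 that difference was 1.39, and without LU mouse 2 it was 0.45. Between CLE and LU livers the difference was -1.03, and it was -0.19 without CLE mouse 4, -0.60 without LU mouse 2, -1.55 without CLE mouse 11 and -1.54 without LU mouse 8.

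Cfd varied between mice on the same diet more than most genes did. Its highest level among the 9 high-fat-fed livers was 12.2 times its lowest, and only 22.2% of its log2 variance in those livers lay between the groups. The pooled SD within groups was 0.91 on the log2 scale. The median SD was 0.16 for the 1129 genes whose mean log2 level lay within 0.5 of that of Cfd, and 99.3% of that set had a lower SD. The spread was uneven, with a highest-to-lowest ratio of 1.76 in HFD, 3.71 in LU and 6.89 in CLE livers.

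The place of Cfd among liver transcripts moved with the diet. By mean FPKM it ranked 10083 of the 11986 genes tested in ND livers and 989 in HFD livers. In CLE livers it ranked 865, and in LU livers 507. Within single ND livers it lay between percentiles 12.0 and 17.8 of the genes tested, and within single high-fat-fed livers between 75.1 and 97.3.

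Both Cfd transcripts took part in the difference, and the annotated one carried most of it. The annotated transcript stood at 0.889 to 1.65 FPKM in ND livers and at 18.9 to 244.0 FPKM in the high-fat-fed livers. The assembled transcript that starts upstream was at or below 0.305 FPKM in ND livers and at 2.87 to 20.9 FPKM in the high-fat-fed ones. It made up 6.06% (LU mouse 8) to 13.2% (CLE mouse 4) of the gene's FPKM in high-fat-fed livers. In ND mouse 4 the share was 19.8%, at a gene level of only 1.54 FPKM, and in the other ND livers the assembled transcript was below 0.001 FPKM. These shares are Cufflinks' estimates for overlapping transcripts.

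The genes beside Cfd on chromosome 10 showed no difference of that size. Upstream, Prtn3 and Elane, which encode serine proteases of neutrophil granules, were at or below 1.34 and 0.612 FPKM in every liver. Downstream, Med16, a Mediator subunit, ran from 7.73 to 8.84 FPKM in ND and from 7.499 to 11.2 FPKM in the high-fat-fed livers. Kiss1r, the kisspeptin receptor, stayed at or below 1.14 FPKM in all 12 livers, and R3hdm4 ran from 13.5 to 15.9 FPKM in ND and from 16.8 to 23.9 FPKM in high-fat-fed livers.

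The libraries differed in ways that touch these values. The summed FPKM of all genes ran from 532623 to 633969. The transcripts left out of the gene sums held more, from 1489033 FPKM in ND mouse 4 to 6096453 in CLE mouse 4, the high-fat-fed liver with the least Cfd, and their part in its level was not tested. Albumin, the main hepatocyte transcript, was listed at 0 in 11 of 12 livers, which shows that a 0 can be a failed estimate. The summed list of 8 hepatocyte markers, albumin included, was at least 10951 FPKM in every liver. The median log2 difference of all genes tested, HFD minus ND, was 0.11 with the deposited values and -0.01 after median-of-ratios scaling. The GC content of genes was related to their deviation in each library, with a Spearman rho from -0.370 to -0.138 in ND and HFD livers and from 0.159 to 0.471 in CLE and LU livers. The main Cfd transcript has a GC content of 58.4%, above that of 90.9% of the genes tested, and the highest rho again belonged to CLE mouse 4. After a correction for GC, the log2 difference of Cfd was 4.98 for HFD against ND, -0.38 for CLE against HFD and 0.73 for LU against HFD.

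Because Cfd is an adipocyte gene, markers of adipocytes were read in the same libraries. Adipoq, which encodes the adipocyte hormone adiponectin, was at 0 in 2 of 3 HFD livers and at 0.037 FPKM in the other. Lep, which encodes leptin, was at 0 in all ND, HFD and CLE livers, and Plin1, the perilipin of adipocytes, was at or below 0.027 FPKM there. The HFD liver with the most Cfd, mouse 18 at 103.7 FPKM, had Adipoq, Lep and Plin1 all at 0. Adig, Retn, Adrb3 and Fabp4, also of the list, were higher in HFD than in ND livers without overlap, while Acvr1c, Slc7a10 and Aoc3 overlapped. The share of all genes tested with such a gap was not counted. Adig, an adipogenesis gene, was at 0.054 to 0.076 FPKM in ND and 0.407 to 0.764 FPKM in HFD livers, and Retn, which encodes resistin, was at 0 in ND and at 0.070 to 0.134 FPKM in HFD livers. Adrb3, the beta-3 adrenergic receptor gene, was at 2.61 to 3.49 FPKM in ND and 3.70 to 5.29 FPKM in HFD livers, and Fabp4, a fatty acid binding protein that macrophages and endothelium also express, at 10.7 to 14.7 and 27.9 to 31.5 FPKM. The part of these markers in the level of Cfd was not tested.

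LU livers stood apart from the others in some of these markers, Adipoq, Lep, Plin1 and Aoc3, all below 1 FPKM. In Retn, Adrb3, Acvr1c, Slc7a10, Fabp4 and Adig they overlapped with CLE livers. The share of all genes in which the LU livers stood apart was not counted. Adipoq was at 0.759, 0.508 and 0.4999 FPKM in LU mice 2, 3 and 8, against at most 0.145 FPKM in any other liver. Lep was at 0.139 to 0.187 FPKM and Plin1 at 0.137 to 0.327 FPKM in LU livers. Within the 3 LU livers the summed level of Adipoq, Lep and Plin1 followed the order of Cfd, at 1.26, 0.855 and 0.824 FPKM in mice 2, 3 and 8. In the CLE and HFD groups the sum did not follow that order. It was at 0.048, 0.139 and 0.172 FPKM in CLE mice 2, 4 and 11. In HFD mice 12, 15 and 18 it was at 0.037, 0.021 and 0 FPKM. The part of these markers in the LU level of Cfd was not tested.

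Over the whole list of 10 adipocyte markers, the summed level was 13.5 to 17.6 FPKM in ND, 33.7 to 36.6 in HFD, 27.8 to 63.6 in CLE and 36.5 to 55.2 in LU livers. Most of that sum was Fabp4 and Adrb3. Retn, Acvr1c, Slc7a10, Aoc3 and Adig stayed below 1 FPKM in every liver. The list of 16 macrophage, monocyte and neutrophil markers summed to 68.6 to 70.8 FPKM in ND, 94.0 to 128.5 in HFD, 102.7 to 131.8 in CLE and 73.9 to 120.0 in LU livers. The median Pearson r of the 13 tested markers with Cfd was 0.54 over all 12 livers, against 0.25 for all genes tested, and 0.08 over the 9 high-fat-fed livers, against -0.12. Their part in the level of Cfd was not tested.

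Circadian clock genes also differed between ND and the other livers. The sum of 16 such genes was 140.8 to 202.8 FPKM in ND and 170.4 to 347.9 FPKM in high-fat-fed livers, but its members moved in opposite directions. Dbp, a clock output factor, had a median of 3.01 FPKM in ND, 23.1 in HFD, 37.7 in CLE and 38.2 in LU livers, and reached 21.4 FPKM in 1 ND liver. Arntl, an activator of the clock, had medians of 5.80, 2.75, 2.32 and 1.67 FPKM in the same order, and Clock, its partner, 13.4, 8.39, 6.76 and 6.06 FPKM. The median r of the 16 genes with Cfd was 0.58 over 12 livers and -0.20 over the 9 high-fat-fed ones. Their part in the level of Cfd was not tested.

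**Figure D2:**
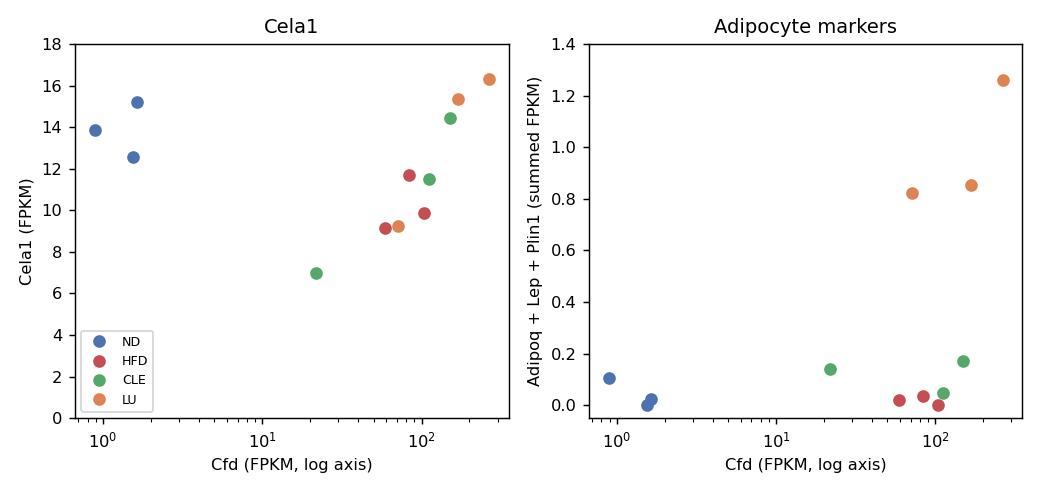
Left, Cela1 in FPKM against Cfd in FPKM (log axis), and right, the summed FPKM of the adipocyte markers Adipoq, Lep and Plin1 against Cfd, 1 point per liver and 1 colour per group. The 9 high-fat-fed livers line up for Cela1 with the ND livers apart from them, and the LU livers alone rise above 0.8 FPKM in the marker sum.

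Cfd was then set beside genes of steatosis, the storage of fat in hepatocytes, through a list of 35 genes of which 33 were tested. The list holds lipid droplet proteins, genes of fatty acid uptake with PPAR-gamma (the adipogenic nuclear receptor), enzymes of fat synthesis and 2 further genes. Other genes than Cfd were compared with limma on log2(FPKM + 1) at a Benjamini-Hochberg adjusted p of 0.05 over all genes tested. Between HFD and ND livers 12 of the 33 passed, 11 higher and 1 lower in HFD. Of all genes tested 11.8% passed, 9.74% higher and 2.03% lower. The median log2 difference was 0.36 over the list and 0.11 over all genes tested.

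All 6 genes of the uptake group rose with the HFD. Mogat1, a monoacylglycerol acyltransferase, was at 4.40, 4.39 and 6.28 FPKM in ND and at 26.4, 26.6 and 25.6 FPKM in HFD livers (log2 difference 2.19, SE 0.21, limma adjusted p = 5.7e-05). Cd36, the fatty acid transporter, was at 38.6, 55.005 and 38.8 FPKM in ND and at 144.4, 161.0 and 140.9 FPKM in HFD livers (1.75, SE 0.21, limma adjusted p = 0.00022). Lpl, the lipoprotein lipase, rose by 2.002, Vldlr, the VLDL receptor, by 1.55, Fabp4 by 1.24 and Pparg itself by 0.70 on the log2 scale.

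Among 15 tested lipid droplet genes 4 rose, Cidea, Plin4, Fitm1 and Plin3. Cidea, which promotes the fusion of droplets, was at 0.419, 0.680 and 0.302 FPKM in ND and at 32.0, 30.7 and 15.8 FPKM in HFD livers (4.15, SE 0.40, limma adjusted p = 6.5e-05). Plin4, a perilipin, was at 6.05, 5.82 and 6.37 FPKM in ND and at 32.6, 45.5 and 48.9 FPKM in HFD livers (2.59, SE 0.35, limma adjusted p = 0.00054). Plin2, the main perilipin of hepatocytes, did not pass, at 706.5 to 854.0 FPKM in ND livers and with a log2 difference of -0.12. Cidec, a further droplet fusion gene, did not pass either (0.45).

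Of the 10 synthesis genes only Srebf1, the lipogenic transcription factor, passed, with a rise of 1.72. Apoa4, an apolipoprotein that responds to liver fat, fell by 1.57 (limma adjusted p = 0.039), and the hormone gene Fgf21 did not pass (-0.93). Of the 12 calls, those of Cd36, Cidea, Lpl, Mogat1 and Vldlr held in all alternatives. The others were lost in at least 1. Plin4 was lost only with sums by the table's gene name column, which adds Plin5 to it and gives a log2 difference of 0.29. Apoa4 was lost without each of the ND and HFD livers in turn, with a limma adjusted p of up to 0.12 without HFD mouse 15. Pparg was lost without ND mouse 2 or 4 or HFD mouse 12 or 18.

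Mogat1 passed as lower under both additives and Cd36 under CLE only, with a fall of Cd36 under LU that did not pass. The Cfd levels of the CLE and LU groups overlapped with those of HFD. In CLE against HFD livers 4 of the 33 listed genes passed, with 5.66% of all genes tested passing, 2.52% higher and 3.15% lower. Mogat1 was at 13.2, 6.00 and 8.11 FPKM in CLE mice 2, 4 and 11 and fell by 1.49 on the log2 scale (limma adjusted p = 0.0043), while Cfd in those livers was at 111.0, 21.8 and 150.03 FPKM. Cd36 was at 105.5, 59.6 and 73.0 FPKM and fell by 0.94 (limma adjusted p = 0.034). Plin5, a perilipin of oxidative tissues, rose by 0.88 and Dgat1, a triglyceride synthase, by 0.55. The Mogat1 call held without each HFD and CLE liver in turn. The number of calls over all genes moved as well, from 679 to 30 without HFD mouse 15, 59 without CLE mouse 4 and 2266 without CLE mouse 2. The Cd36, Plin5 and Dgat1 calls were lost without CLE mouse 4 and without each HFD liver, with limma adjusted p for Cd36 of 0.12 without CLE mouse 4 and of up to 0.14 without HFD mouse 15.

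In LU against HFD livers 1 of the 33 passed, lower in LU, with 0.993% of all genes tested passing, 0.284% higher and 0.709% lower. It was Mogat1, at 9.45, 8.47 and 10.4 FPKM in LU mice 2, 3 and 8, which fell by 1.39 (limma adjusted p = 0.0091), while Cfd there was at 264.9, 168.3 and 71.3 FPKM. Without LU mouse 3 the limma adjusted p of Mogat1 was 0.062, and without HFD mouse 15 it was 0.052. Cd36 was at 73.7, 74.8 and 104.5 FPKM in LU mice 2, 3 and 8. Its fall from HFD of 0.83 on the log2 scale did not pass (limma adjusted p = 0.078). Cidea, at 9.37 to 28.1 FPKM in CLE and 12.9 to 38.4 FPKM in LU livers, passed neither comparison with HFD (-0.55 and -0.05), and neither did Plin4 (0.22 and 0.17).

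Against ND, Cidea and Plin4 were higher in both groups with an additive, as Cfd was. In CLE against ND livers 14 of the 33 passed, with 26.7% of all genes tested passing, and in LU against ND livers 11 passed, with 14.6% of all genes. Cidea was higher by 3.60 and 4.11 and Plin4 by 2.82 and 2.76 on the log2 scale, in CLE and LU livers respectively. Mogat1 remained higher than in ND by 0.70 in CLE and 0.80 in LU livers. The corresponding values for Cfd were 4.96 and 5.99. The comparisons with HFD share the HFD livers and those with ND share the ND livers.

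Mouse by mouse, the likeness of Cfd to the steatosis genes lay in the gap between ND and the high-fat-fed livers. Correlations are Pearson's r on log2(FPKM + 1), given without a p because the points share libraries, GC-related differences and the diet. Over all 12 livers the median r with Cfd was 0.48 over the 33 genes, with 16 above 0.5, and 0.25 over all genes tested, of which 27.4% were above 0.5. Over the 9 high-fat-fed livers the median was -0.10 over the list and -0.12 over all genes tested, and 0 of the 33 exceeded 0.5, as 3.94% of all genes did, while 4 lay below -0.5, as 12.2% of all genes did. Within these livers the list thus stood near all genes tested. The mean of the standardised levels of the 33 genes, a score of the list, had an r with Cfd of 0.61 and a Spearman rho of 0.38 over 12 livers. Over the 9 high-fat-fed livers r was -0.26 and rho -0.47, and over deviations from the group means r was -0.25.

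Single genes also had another r with Cfd once the ND livers were left out. For Cidea, r with Cfd was 0.94 over 12 livers and 0.41 over the 9, and it was -0.81 once CLE mouse 4 and LU mouse 2, the livers farthest from the median of Cfd, were left out. For Plin4, r was 0.81 over 12 livers and -0.67 over the 9. The liver with the least Cfd of the 9, CLE mouse 4, had the most Plin4, at 100.5 FPKM. For Mogat1 r moved from 0.61 to 0.00 and for Cd36 from 0.70 to -0.06.

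**Figure D3:**
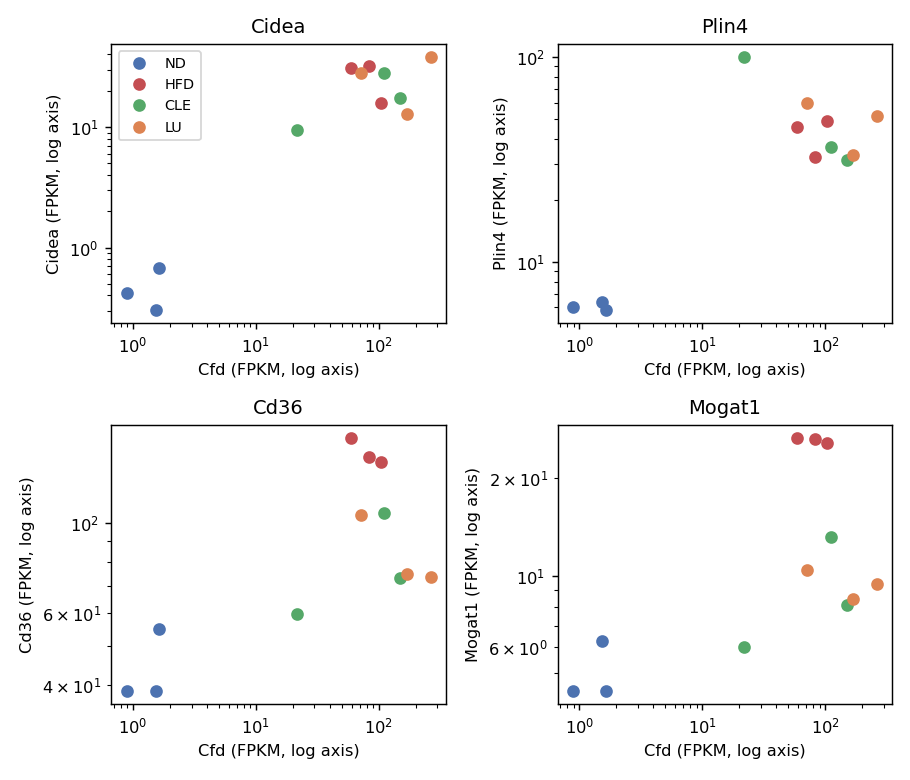
Cidea, Plin4, Cd36 and Mogat1 in FPKM against Cfd in FPKM, both axes log, 1 point per liver and 1 colour per group. The ND livers sit low on both axes, the CLE and LU livers lie below the HFD livers for Mogat1 and Cd36, and CLE mouse 4 is the leftmost high-fat-fed point with 21.8 FPKM of Cfd.

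**Figure D4:**
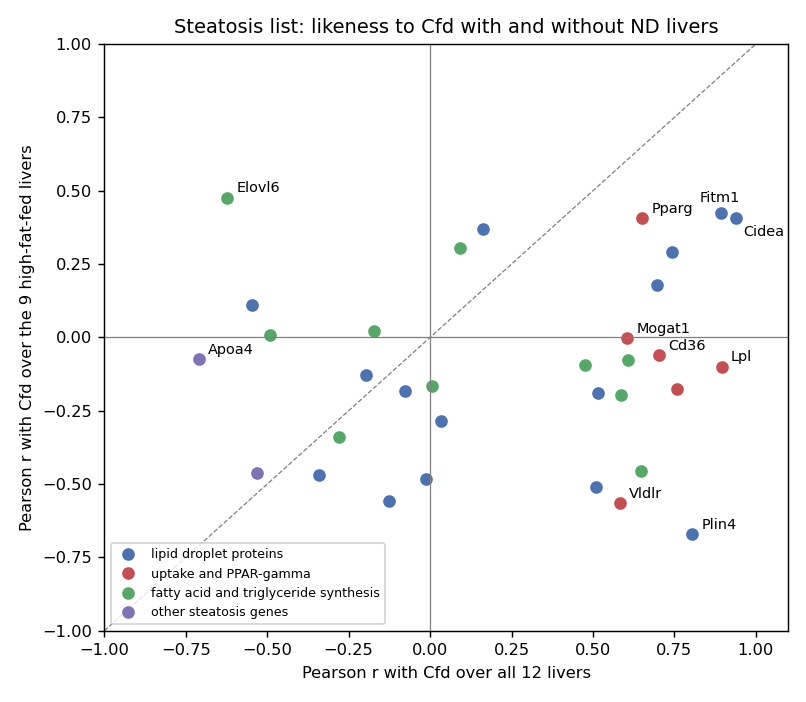
Pearson r with Cfd of the 33 tested steatosis genes, over all 12 livers (horizontal axis) and over the 9 high-fat-fed livers (vertical axis), coloured by subgroup, with the dashed line marking equal values. Of the 33 genes, 16 lie above 0.5 on the horizontal axis and 0 on the vertical axis, where 27.4% and 3.94% of all genes tested lie above it.

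Cfd acts in the alternative pathway, and the rest of complement was read through a list of 29 other genes, of which 28 were tested. Between HFD and ND livers 10 of the 28 passed, 7 higher and 3 lower in HFD, beside the 11.8% of all genes. None of these changes came near the size of the difference in Cfd. Because Cfd was selected on its levels in these livers, that gap is no result about complement. With median-of-ratios scaling 6 passed, and the calls of Cd59a, C8b and Vsig4 held in all alternatives, while the other 7 were lost in at least 1.

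Transcripts of C3 and factor B, the proteins on which factor D acts, were abundant on every diet. C3, the central component, was at 1597 ± 73.2 FPKM in ND and 1735 ± 104 FPKM in HFD livers (SD, n = 3), a log2 difference of 0.12 that did not pass. Cfb, the factor B that factor D cleaves, was at 286.4 ± 4.06 FPKM in ND and 350.0 ± 18.8 FPKM in HFD livers (0.29, did not pass). In ND livers the Cfd transcript was thus far below that of Cfb, with 1.36 against 286.4 FPKM. In LU livers the same transcript levels were 168.2 FPKM for Cfd and 367.4 FPKM for Cfb. These are RNA levels in the liver, and they do not give the amounts of the secreted proteins.

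Cfp, the properdin that stabilises the convertase, was at 6.57 to 8.18 FPKM in ND and at 9.05 to 13.0 FPKM in HFD livers and rose by 0.57 (limma adjusted p = 0.037). Masp1, whose product MASP-3 activates pro-factor D, rose by 0.47 (limma adjusted p = 0.024). Both calls were lost when 1 liver was left out, with limma adjusted p of up to 0.14 for Cfp, without HFD mouse 18, and of up to 0.11 for Masp1, without ND mouse 2. The table gives no separate value here for the MASP-3 form.

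Among the regulators, 3 of 13 rose, the membrane inhibitors Cd59a (0.55) and Cd59b (0.84) and clusterin, Clu (0.41). Cd59a and Cd59b are close copies, and fragments can be shared out between them. Cfi, the protease that inactivates C3b, did not pass (0.27). In the terminal pathway 3 of 7 genes passed, all lower in HFD livers, with log2 differences of -1.92 for C8b, -0.93 for C6 and -0.51 for C8a. Of 4 tested receptors, C5ar1 rose by 0.52 and Vsig4, a C3b receptor of Kupffer cells, by 0.92.

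No complement gene followed the additives at this threshold. With limma 0 of 28 passed in CLE against HFD livers and 0 in LU against HFD livers, where 5.66% and 0.993% of all genes did. At an unadjusted limma p of 0.05 the numbers were 10 and 7 of 28, with 29.4% and 20.4% of all genes tested at that threshold. Against ND, 7 passed in CLE and 4 in LU livers, where 26.7% and 14.6% of all genes did, so these counts were close to the shares over all genes. Over the 9 high-fat-fed livers r with Cfd was -0.64 for Cfb, -0.44 for C3 and -0.22 for Cfp, and 0.21 for Masp1.

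**Figure D5:**
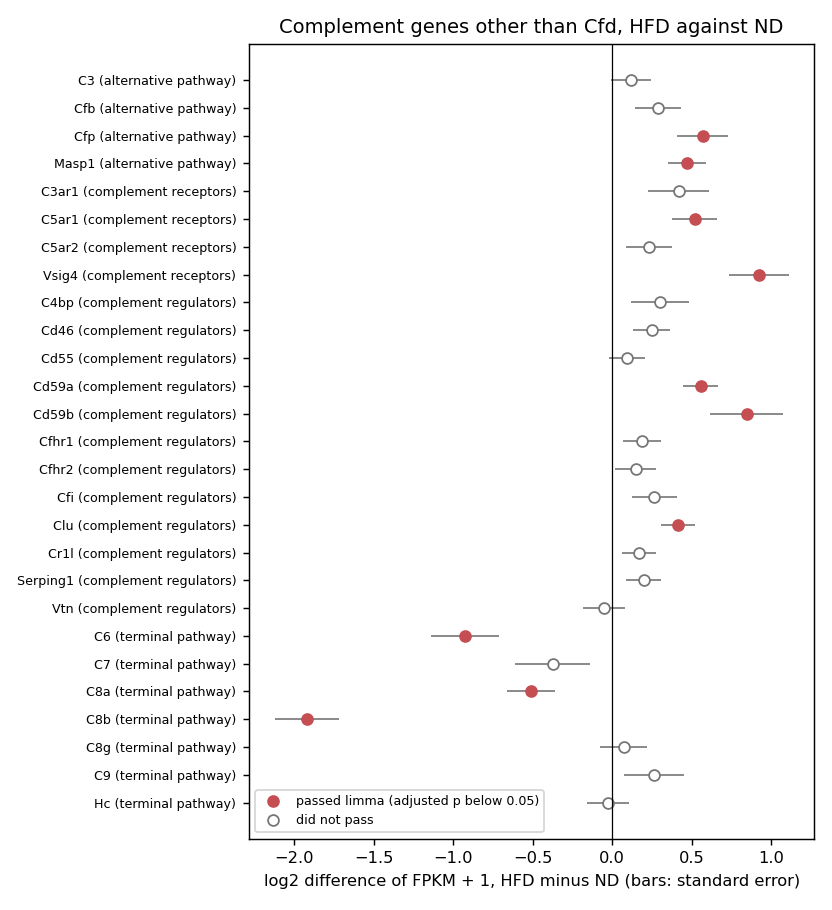
log2 difference of FPKM + 1, HFD minus ND, for 27 of the 28 tested complement genes other than Cfd, with bars for the standard error. Filled points passed limma's test (7 higher, 3 lower), and all lie between -1.92 and 0.92, against 5.11 for Cfd, which was selected on its levels.

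The genes most like Cfd over the 12 livers were again those that separated ND from the other groups. The highest r belonged to Tmem50a, a membrane protein gene, at 0.97, followed by F8a (0.96), Tex264 (0.95), Clpb (0.95), Lgr5 (0.94), Tmem109 (0.94), Cidea (0.94), Mcm3 (0.94), Krt23 (0.93) and Themis (0.93). Tmem50a moved little in size, from 42.5 to 45.6 FPKM in ND and from 52.9 to 73.0 FPKM in high-fat-fed livers. Its r over the 9 high-fat-fed livers was 0.84, and -0.06 without CLE mouse 4 and LU mouse 2, so within these livers it rested on that pair.

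The genes most opposite to Cfd were Cyp17a1, a steroid hydroxylase, at -0.97, Zfp326 (-0.96), Hsd17b7 (-0.94), Tent5a (-0.94) and Pitx3 (-0.92). Cyp17a1 was at 33.4 to 42.3 FPKM in ND livers and at 2.24 to 5.42 FPKM in the other 9. Within those 9 its r with Cfd was still -0.75, and -0.89 without the farthest pair.

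Once group means were removed, a different gene stood closest to Cfd. Over deviations from the group means the highest r was that of Cela1, a chymotrypsin-like elastase, at 0.92, followed by Enpp2, or autotaxin (0.90), Nxpe2 (0.89), Sucnr1, the succinate receptor (0.88), and Etv5, an ETS transcription factor (0.88). With group means kept, r over the 9 high-fat-fed livers was 0.51 for Enpp2 and 0.57 for Nxpe2. It was 0.78 for Sucnr1 and 0.59 for Etv5. Without the farthest pair, CLE mouse 4 and LU mouse 2, these values were -0.26, -0.17, 0.28 and 0.78 in the same order. In HFD livers Cela1 was at 11.7, 9.13 and 9.86 FPKM (mice 12, 15 and 18). In CLE livers it was at 11.5, 6.96 and 14.4 FPKM (mice 2, 4 and 11), and in LU livers at 16.3, 15.4 and 9.22 FPKM (mice 2, 3 and 8).

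Cela1 thus followed the order of Cfd in the CLE and LU groups, but not the diet. Over the 9 high-fat-fed livers r was 0.95 and rho 0.95, and r was 0.90 without the farthest pair. Over all 12 livers r was -0.05, since the ND livers held 12.5 to 15.2 FPKM of Cela1 with almost no Cfd. Cela1 was picked as the top of 11986 genes ranked by r, so its r is a description.

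Some further genes were named after their values were seen. The lowest r with Cfd over deviations from the group means was that of Sox12, a transcription factor gene, at -0.95. With group means kept, its r over the 9 high-fat-fed livers was -0.75, and -0.37 without the farthest pair. Sox12 was at 0.354 to 1.57 FPKM over the 12 livers. Cyp2b13, a cytochrome P450 with near-identical copies, had an r of -0.94 over the deviations. With group means kept, its r was -0.68 over the 9 high-fat-fed livers and -0.80 without that pair. It was at 1.99 to 2.47 FPKM in HFD livers. In CLE mouse 4 and LU mouse 8, the livers with the least Cfd of their groups, it was at 1.77 and 1.36 FPKM. In the other CLE and LU livers it was at or below 0.223 FPKM. The ND livers, with still less Cfd, also held little Cyp2b13, with a median of 0.0641 FPKM. Over all 12 livers the r of Cyp2b13 with Cfd was 0.297, so the opposite order did not extend to the ND livers. Slco1a1, an organic anion transporter, had an r of 0.87 over the same deviations. It was at 38.2 FPKM in CLE mouse 4 and 35.4 FPKM in LU mouse 8, and at 61.4 to 95.2 FPKM in the other CLE and LU livers. In HFD livers it was only at 11.4 to 18.4 FPKM beside 58.9 to 103.7 FPKM of Cfd, and over the 9 high-fat-fed livers its r was 0.54. In ND livers, with the least Cfd of all, Slco1a1 was at 150.3 to 172.2 FPKM. Among the other genes looked at in this way, r over the deviations was 0.83 for Ghr, the growth hormone receptor. It was -0.12 for Stat5b, a transcription factor that the receptor activates, and 0.02 for Mup20, a major urinary protein gene. With group means kept, r over the 9 high-fat-fed livers was 0.29, -0.18 and 0.24 in the same order. Without the farthest pair it was -0.46, -0.82 and 0.33.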

How the data were processed

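Livers of 12 mice were sequenced as paired reads of 100 bases, and mice were grouped by their labels, which abbreviate CLE differently. The submitters' processing notes name CASAVA 1.8.2, Bowtie2 2.2.3, TopHat2 2.0.12 and Cufflinks 2.2.1. The authors deposited FPKM per transcript. Cufflinks estimates these where transcripts overlap, so depth is unknown and no counting interval can be given. The table names 30 samples for its assembly and holds 12. The genome build is not given in the sources used here, and 87.6% of known transcripts have the start and end of GENCODE M21 (GRCm38).

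FPKM was summed per M21 gene over 142559 of 152210 transcripts. The name column was the planned unit, but it put 4 listed genes under a neighbour and became an alternative. Cfd has the same value in both. Groups were compared on log2(FPKM + 1) with limma 3.58.1 in R 4.3.3 (variance trend, all 12 livers, 12.7 degrees of freedom), for the 11986 genes whose mean reached 0.5 FPKM. On simulated data for HFD against ND over these genes, all 200 genes given a log2 change of 1.5 were recovered, with 4 other calls. The simulated noise was normal and independent between genes and livers, with a spread set by expression level. It left out uneven livers, so it checks that the fit runs and not how steady the calls are. P-values of the main fit rest on the spread between mice within groups, 3 per group. That spread is pooled over all 4 groups and drawn towards that of genes of like level.

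Cfd and the gene lists were chosen with earlier results of these data known. Named are Cfd, listed genes that passed or are best known, the 10 genes with the highest and 5 with the lowest r over 12 livers, the 5 with the highest r over deviations, and adipocyte markers. Alternatives were a pseudocount of 0.1, no filter, a minimum mean of 5 FPKM, no variance trend, scaling by median of ratios or by quantiles, groups compared alone, the transcript with the highest mean, a GC correction (99.4% of genes tested had a GC value), a replicate block and each mouse of the compared groups left out. Name-column sums and the 9 high-fat-fed livers alone were added after seeing the data. The values of 1 complement gene are not reported here.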

Additional observations from a re-analysis of the deposited data

How the results depend on the processing

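The Cfd differences from ND kept their direction in all alternatives, and all 6 Cfd differences moved by less than the pooled SD of 0.91. Without 1 mouse at a time they ran from 4.93 to 5.33 (HFD against ND), -0.68 to 0.69 (CLE against HFD), 0.45 to 1.39 (LU against HFD), 4.44 to 5.80 (CLE against ND), 5.57 to 6.51 (LU against ND) and -1.55 to -0.19 (CLE against LU). The r of Cfd with the steatosis score reversed from 0.61 to -0.26 over the 9 high-fat-fed livers, because the ND livers were left out. Over 12 livers it was 0.41 with the GC correction and 0.47 with median-of-ratios scaling. It ran from 0.53 to 0.71 without 1 mouse at a time, and was 0.27 without ND mice 2 and 4 together.

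Steatosis calls for CLE against HFD numbered 4, and 1 with no filter, with groups compared alone or with the transcript of the highest mean, and 2 with the GC correction. For LU against HFD they numbered 1, and 2 with no filter and 3 with groups compared alone. Complement calls for HFD against ND numbered 10, and 6 with median-of-ratios scaling, 5 with quantile normalization, 3 with the transcript of the highest mean and 5 with the GC correction. For CLE against HFD the 0 became 2 at a mean of at least 5 FPKM and 1 with quantile normalization or the name column, and for LU against HFD 1 with the transcript of the highest mean. Without 1 mouse at a time, steatosis calls ran from 7 to 12 (HFD against ND), 1 to 7 (CLE against HFD) and 0 to 3 (LU against HFD), and complement calls from 3 to 8, 0 to 2 and 0 to 1. Over all genes tested the calls then ran from 667 to 1128, 30 to 2266 and 21 to 206, so the shares beside the list counts move too. Except where fewer genes or mice entered, the cause was not tested.

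Same-numbered mice did not deviate together (r from -0.251 to 0.194). These few pairs, none with an HFD mouse, cannot show whether the numbers mark a pairing. With a replicate block, Cfd differed by 4.47 (CLE against ND), 6.24 (LU against ND) and -1.78 (CLE against LU), steatosis calls were 6 and 2, and complement calls 1 and 0, for CLE and LU against ND, in fits of fewer mice.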
